A study of Mus musculus x Rattus norvegicus with 2 samples.

Results

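The genes described here are 10 genes of epithelial cell contacts and the epithelial cytoskeleton: the adhesion genes Epcam and Cdh1, the keratins Krt7, Krt8, Krt18 and Krt19, and the claudins Cldn3, Cldn6, Cldn7 and Cldn18. They were taken by symbol from both feature tables, where each symbol had 1 feature per species, so 10 of 55403 mouse features and 10 of 25399 rat features were used. Their transcripts were counted in droplet single-cell RNA libraries from lungs of rat (SD) embryos at E20.5 that carried mouse (C57BL/6) cells, 1 library for each of 2 hosts. The mutant library came from the lung of an Nkx2-1-/- rat host, and the control library from the chimeric lung of a wild-type rat host. Nkx2-1 is a transcription factor that lung epithelium needs to form. The host deletion was in the rat, and the labels give no change in the mouse cells, which both groups share. Whether a library came from 1 embryo or from several is not stated in the sources used here. With 1 library per group there were no p-values, and no replicate stands behind any difference given between mutant and control.

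Epithelial cells hold together through adherens junctions, built on E-cadherin (Cdh1), and seal the space between them with tight junctions, whose strands are made of claudins. Epcam is a surface glycoprotein of most simple epithelia that binds its like on neighbouring cells and is known to stabilise Cldn7. Keratins form the intermediate filaments of epithelial cells as pairs of a type II chain (Krt7, Krt8) with a type I chain (Krt18, Krt19). In the alveoli, flat AT1 cells carry gas exchange and are marked by Ager, while AT2 cells make surfactant, including Sftpc. Secretory cells of the airways are marked by Scgb3a2.

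The 4 claudins share a signature in their first outer loop, glycine-leucine-tryptophan followed by a pair of cysteines. It is shown for the mouse genes in mm10 because the results turn on these 4 related genes being counted apart. The stretches are the 48 coding bases from the signature glycine to its last cysteine, 5′ to 3′ on the coding strand, read from GENCODE vM21 transcripts. Capitals mark the codons of glycine, leucine, tryptophan and the cysteines.
Cldn3 (chr5:134986586-134986633, plus strand): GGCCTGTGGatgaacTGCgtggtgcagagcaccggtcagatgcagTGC
Cldn6 (chr17:23681208-23681255, plus strand): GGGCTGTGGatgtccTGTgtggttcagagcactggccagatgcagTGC
Cldn7 (chr11:69966071-69966118, plus strand): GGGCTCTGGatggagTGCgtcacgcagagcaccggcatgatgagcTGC
Cldn18 (chr9:99709760-99709807, minus strand): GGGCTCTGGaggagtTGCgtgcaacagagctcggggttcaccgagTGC
Over their coding sequences Cldn3 and Cldn6 were the most alike of the 6 pairs, at 67.3% identical bases, and Cldn6 and Cldn18 the least, at 62.3%. None of these 4 mouse coding sequences was therefore a near-identical copy of another of the 4. Their rat counterparts, other claudins and the non-coding parts of the transcripts were not compared.

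In mm10, by GENCODE vM21, Epcam (ENSMUSG00000045394) lies on chromosome 17 at 87635979 to 87651129 and Cdh1 (ENSMUSG00000000303) on chromosome 8 at 106603351 to 106670246. Krt7 (ENSMUSG00000023039; 101411043 to 101430313), Krt8 (ENSMUSG00000049382; 101996698 to 102004482) and Krt18 (ENSMUSG00000023043; 102028180 to 102032027) share chromosome 15. Krt19 (ENSMUSG00000020911) lies on chromosome 11 at 100140810 to 100148665. The claudin genes span 134986214 to 134987472 on chromosome 5 for Cldn3 (ENSMUSG00000070473), 23679249 to 23682446 on chromosome 17 for Cldn6 (ENSMUSG00000023906), 69964779 to 69967885 on chromosome 11 for Cldn7 (ENSMUSG00000018569) and 99689461 to 99717267 on chromosome 9 for Cldn18 (ENSMUSG00000032473). Exons of Krt7, Krt8 and Cldn3 overlap an exon of a gene on the other strand (Gm671, Gm36026 and Wbscr25). Whether strand was used in counting is not stated in the sources used here, so a contribution of those genes was not tested.

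Epithelial barcodes were chosen with none of the 10 genes. Levels are CPM, the UMIs (unique molecular identifiers) of a gene scaled to a fixed total of UMIs of the own species, and UMIs were summed over the barcodes of a gate. Alveolar barcodes had Ager of at least 500 CPM or Sftpc of at least 10000 CPM, and airway barcodes had Scgb3a2 of at least 2000 CPM. The mutant library held 1880 mouse alveolar barcodes, of which 1122 passed by Ager only, 338 by both genes and 420 by Sftpc only, and 57 airway barcodes. The control library held 828 mouse alveolar barcodes, of which 260 passed by Ager only, 227 by both and 341 by Sftpc only, and 100 airway barcodes. The median depth of alveolar barcodes was 11837 UMIs in the mutant and 13678.5 UMIs in the control library, and that of airway barcodes was 21928 and 9118.5 UMIs. Intervals in brackets are 95% exact Poisson or exact Clopper-Pearson intervals and cover counting error only.

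Marker genes that took no part in the gates followed them. The 7 AT1 markers other than Ager summed to 8324 CPM in the mutant and 1512 CPM in the control library among Ager-only barcodes, and to 159 and 291 CPM among Sftpc-only barcodes. The 7 AT2 markers other than Sftpc summed to 17019 CPM in the mutant and 2969 CPM in the control library among Sftpc-only barcodes, and to 232 and 296 CPM among Ager-only barcodes. The 4 secretory markers other than Scgb3a2 summed to 32532 CPM in the mutant and 1877 CPM in the control library among airway barcodes, and to 101 and 73.2 CPM among Ager-only barcodes. Airway barcodes also had 105 CPM of 5 ciliated markers in the mutant and 778 CPM in the control library. The basal markers Trp63, Krt5 and Krt14 were at 0 in the airway barcodes of both libraries. In alveolar barcodes the 5 endothelial markers summed to 39.4 CPM in the mutant and 80.4 CPM in the control library, and the 5 fibroblast markers to 71.3 and 90.8 CPM. The gates themselves capped Pecam1, Cdh5, Pdgfra and Tcf21 of these lists, so these low sums were partly set by the gates. The red cell globins summed to 1896 and 919 CPM there. The mesothelial list summed to 606 CPM in the mutant and 24.2 CPM in the control alveolar barcodes, of which Msln held 601 and 20.8 CPM, while Wt1, Upk3b and Lrrn4 were each at 2.99 CPM or less. Of all barcodes deposited, 47 sequences occurred in both libraries, 2 of them among mouse epithelial barcodes.

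The files were made with different Cell Ranger versions, 7.0.1 for the mutant and 6.0.1 for the control library. Version 7 counts intronic reads by default, and the setting used is not stated in the sources used here. Log2 differences between the libraries followed intron length: in alveolar barcodes their median was -0.62 for genes with 0.423 to 1.67 kb of intron and 1.30 for genes with over 202 kb. Log2 differences were taken with 10 CPM added to both levels. The main ones are also given as an intron-matched value, the same difference less the median of genes in the same bin of intron length. In alveolar barcodes the last bin ran from 202 to 4426 kb, so the match is coarse for genes with the longest introns. Cdh1 has 62.3 kb of intron and Cldn18 23.4 kb, while the other 8 genes have 13.0 kb or less and Cldn3 has none. The software version and the host genotype cannot be told apart in any difference between the libraries.

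The 10 genes were mostly epithelial in both libraries. Between 77.9% (Krt8) and 97.5% (Cldn18) of their mouse UMIs lay in the alveolar and airway gates in the mutant library, and between 86.0% (Krt19) and 96.1% (Cldn18) in the control library. Endothelial barcodes, which should lack these genes, had 0.123 (Cldn6) to 17.6 CPM (Krt19) in the mutant and 2.57 (Cdh1 and Cldn6) to 10.7 CPM (Krt19) in the control library. Fibroblast barcodes had 0.0290 to 9.57 CPM in the mutant and 2.87 to 10.97 CPM in the control library. After each barcode was thinned to 2000 UMIs, an alveolar barcode carried a median of 5 of the 10 genes in the mutant and 6 in the control library, and an airway barcode likewise 5 and 6. The median was 0 in endothelial and fibroblast barcodes of both libraries. In bulk sums over a gate, fewer cells with a transcript and fewer transcripts per cell cannot be told apart from the sum alone, so shares of barcodes are given as well.

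**Figure D1:**
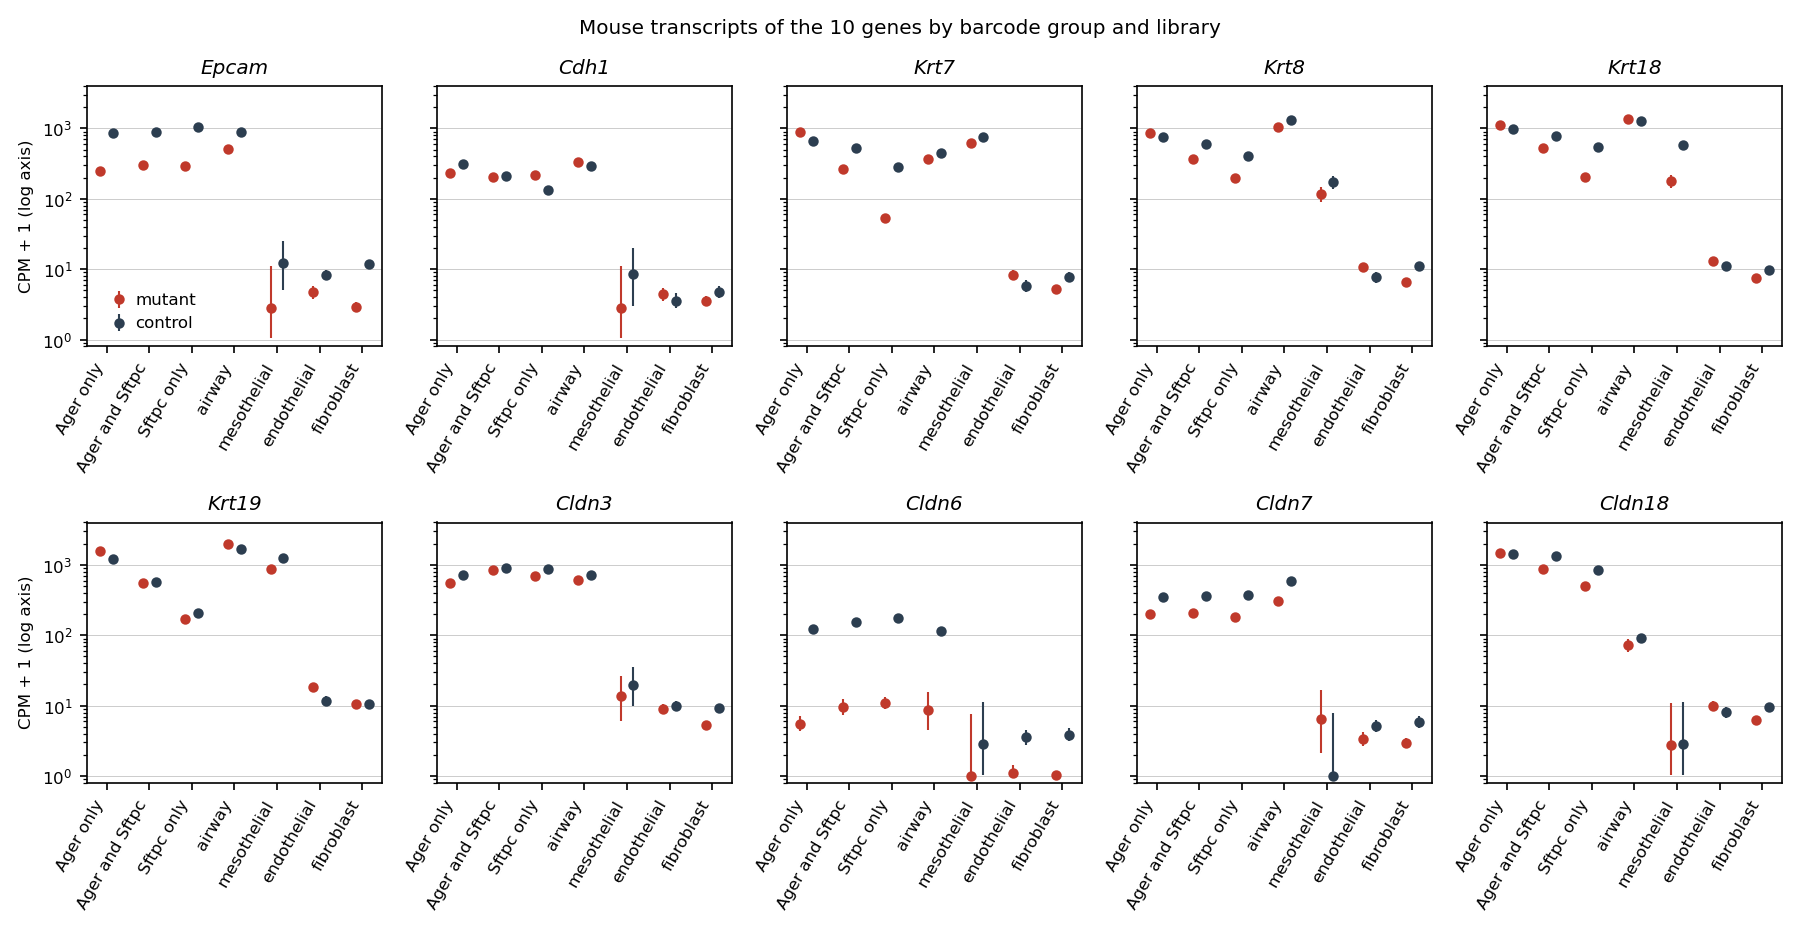
Level of each gene (CPM + 1, log axis) in mouse barcodes of 7 gates, with the mutant library (red) left of the control library (dark) and bars for 95% Poisson intervals. Cldn6 sits near 10 CPM or lower in every epithelial gate of the mutant library and above 100 CPM in those of the control library, while in the mesothelial gate the adhesion genes and claudins sit at 18.5 CPM or lower and the keratins above 100 CPM.

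Of the adhesion genes, Epcam was lower in the mutant library in each gate, while Cdh1 was near its control level in pooled alveolar and in airway barcodes. In alveolar barcodes Epcam stood at 276 CPM (269 to 282) in the mutant and 953 CPM (942 to 965) in the control library, 3.46-fold lower. The log2 difference was -1.75 (-1.80 to -1.70), intron-matched -1.27; 3.22% of the 9445 mouse genes tested had a lower value. The difference was near the same size in each alveolar gate. Epcam had 246 CPM in the mutant and 851 CPM in the control library among Ager-only barcodes, 304 and 875 CPM among barcodes with both genes, and 294 and 1048 CPM among Sftpc-only barcodes. Between its lower and upper quartile, Epcam per alveolar barcode ran from 106 to 363 CPM in the mutant and from 584 to 1179 CPM in the control library. These ranges describe barcodes within 1 library per group, and the same ranges were not compared over all genes.

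In airway barcodes Epcam had 503 CPM (463 to 546) in the mutant and 898 CPM (866 to 931) in the control library, a log2 difference of -0.82 (intron-matched -0.35). Epcam was thus higher in airway than in alveolar barcodes of the mutant library by 0.85 on the log2 scale, while in the control library the same contrast was -0.09. A UMI of Epcam was found in 39.3% (37.0 to 41.6) of alveolar barcodes of the mutant and 77.9% (74.8 to 80.7) of those of the control library after thinning, and in 81.6% and 94.3% before. The thinned share in endothelial barcodes was 0.495% and 1.82%, at median depths of 7810 and 6636 UMIs, so the alveolar shares stood far above the level of free RNA.

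Cdh1 had 220 CPM (214 to 226) in alveolar barcodes of the mutant and 194 CPM (189 to 199) in those of the control library. Its log2 difference of 0.17 turned to an intron-matched -0.08; Cdh1 has the longest introns of the 10 genes. In airway barcodes it had 328 CPM (296 to 363) in the mutant and 291 CPM (273 to 310) in the control library. The alveolar gates differed: Cdh1 had 233 CPM in the mutant and 314 CPM in the control library among Ager-only barcodes, and 216 and 132 CPM among Sftpc-only barcodes. The log2 differences in those gates were -0.41 and 0.67 (intron-matched -0.52 and 0.44). After thinning, 34.2% of alveolar barcodes in the mutant and 37.1% in the control library had a UMI of Cdh1, a gap within the intervals.

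**Figure D2:**
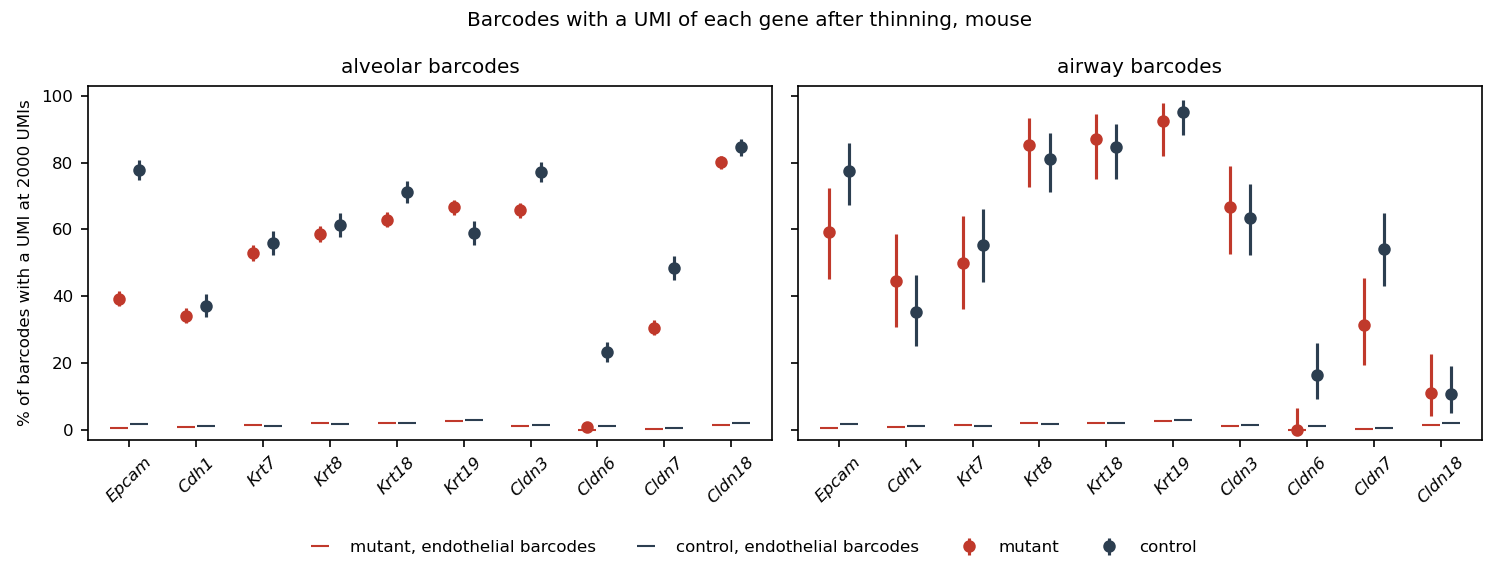
Share of mouse barcodes with at least 1 UMI of each gene after thinning to 2000 UMIs, in alveolar (left) and airway (right) barcodes, with the mutant library (red) left of the control library (dark), 95% Clopper-Pearson bars and dashes for endothelial barcodes. Epcam (39.3% and 77.9%), Cldn6 (0.870% and 23.3%), Cldn7 (30.6% and 48.4%) and Cldn3 (65.8% and 77.3%) were at least 10 points lower in the alveolar barcodes of the mutant library. The same count over all genes was not made, so it has no background. Ager-only barcodes made up 59.7% of alveolar barcodes in the mutant and 31.4% in the control library. Among Sftpc-only barcodes Cldn3 was at 68.4% and 76.4%, short of 10 points.

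The keratins as a group stood within 2-fold between the libraries when alveolar barcodes were pooled. Krt7 had 470 CPM in the mutant and 434 CPM in the control library, Krt8 525 and 543 CPM, and Krt18 675 and 707 CPM. Krt19, a type I keratin of ductal and simple epithelia, had 875 CPM (863 to 887) in the mutant and 519 CPM (511 to 528) in the control library, a log2 difference of 0.74 (intron-matched 1.38). The log2 difference of Krt7 was 0.11 (intron-matched 0.60). Those of Krt8 and Krt18 turned sign, at -0.05 and -0.07 and intron-matched 0.59 and 0.54.

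The pooled keratin levels mixed gates that differed, and Ager-only barcodes made up 59.7% of alveolar barcodes in the mutant and 31.4% in the control library. With the 3 gates weighted equally, an alternative chosen after these values were seen, the log2 differences were -0.26 for Krt7, -0.31 for Krt8, -0.32 for Krt18 and 0.23 for Krt19. Among Ager-only barcodes all 4 keratins were higher in the mutant library under each scaling tried. Krt7 had 897 CPM (879 to 915) in the mutant and 653 CPM (633 to 674) in the control library there, Krt8 859 and 764 CPM, Krt18 1115 and 971 CPM, and Krt19 1581 and 1193 CPM. The log2 differences were 0.45, 0.17, 0.20 and 0.40, and the intron-matched values 0.95, 0.74, 0.78 and 0.97, all short of 2-fold.

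Among Sftpc-only barcodes 3 of the keratins were at least 2-fold lower in the mutant library. Krt7 had 53.0 CPM (48.0 to 58.4) in the mutant and 278 CPM (270 to 287) in the control library, 5.25-fold lower, with a log2 difference of -2.19 (intron-matched -1.62). Krt18, the partner of Krt8, had 203 CPM (193 to 213) in the mutant and 546 CPM (534 to 559) in the control library, a log2 difference of -1.39 (intron-matched -0.69). Krt8 had 196 and 409 CPM, a log2 difference of -1.03 (intron-matched -0.31); with trimmed mean scaling, tried after the data were seen, it was -0.88. Krt19 had 170 CPM (161 to 180) in the mutant and 205 CPM (197 to 213) in the control library; its log2 difference of -0.25 turned to an intron-matched 0.47. The barcodes with both genes lay between, at log2 differences of -0.97 for Krt7, -0.69 for Krt8, -0.57 for Krt18 and -0.00 for Krt19. Their intron-matched values were -0.51, -0.06, 0.03 and 0.63 in that order, so the sign of Krt18 turned.

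The levels of AT1 genes moved with these keratin values. As given above, the 7 AT1 markers other than Ager summed to 159 CPM in the mutant and 291 CPM in the control library among Sftpc-only barcodes, and Ager itself had 231 and 301 CPM in them. In the same barcodes Sftpc had 140890 CPM in the mutant and 53843 CPM in the control library. Ager in Ager-only barcodes stood at 7102 CPM in the mutant and 1316 CPM in the control library. How far these levels bear on the keratin values was not tested.

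The contrast of Ager-only over Sftpc-only barcodes was taken within each library, so the same software version made both sides of it. In the mutant library 5 genes were at least 2-fold higher in Ager-only barcodes, Krt7, Krt19, Krt18, Krt8 and Cldn18, where 8.99% of the 8675 genes tested were that much higher. In the control library 3 were, Krt19, Krt7 and Cdh1, where 2.93% of 9040 genes were. With 10 CPM added to both levels, none of the 10 was at least 2-fold lower, beside 8.3% of genes in the mutant and 1.73% in the control library. The log2 contrast of Krt7 was 3.85 in the mutant and 1.20 in the control library, that of Krt18 was 2.40 and 0.82, that of Krt8 2.08 and 0.89, and that of Krt19 3.14 and 2.49. The control contrast was thus the smaller one for each of the 4 keratins. For Cdh1 the order was the other way, 0.10 (-0.02 to 0.23) in the mutant and 1.19 (1.06 to 1.31) in the control library. Epcam and Cldn3 were lower in Ager-only barcodes by similar amounts in both libraries, at -0.25 and -0.30 for Epcam and -0.30 and -0.30 for Cldn3. Cldn6 was at -0.46 and -0.49, but its mutant levels of 4.56 and 10.00 CPM were no higher than the 10 CPM added. Without that addition its Ager-only level was 0.456 of the Sftpc-only level in the mutant and 0.693 in the control library.

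**Figure D3:**
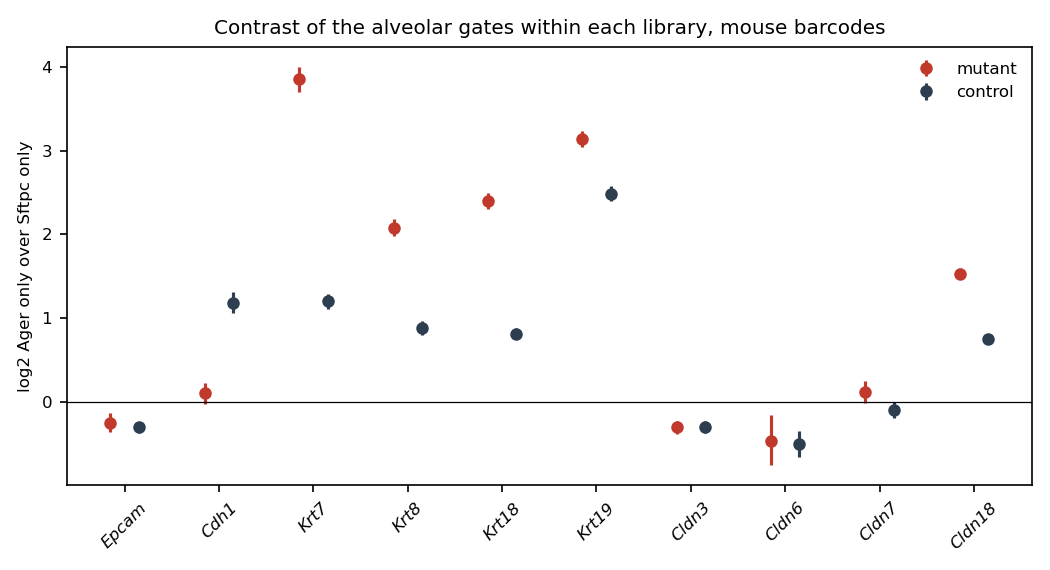
Log2 contrast of Ager-only over Sftpc-only mouse barcodes for each gene, with the mutant library (red) left of the control library (dark) and 95% counting intervals. The keratins and Cldn18 stand higher in the mutant library (Krt7 3.85 and 1.20), Cdh1 stands lower (0.10 and 1.19), and Epcam, Cldn3 and Cldn6 nearly coincide. For Cldn6 the mutant levels were no higher than the 10 CPM added, which shrinks its mutant contrast.

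In airway barcodes Krt19, Krt18 and Krt8 were each above 1000 CPM in both libraries. Krt19 had 1983 CPM (1903 to 2066) in the mutant and 1660 CPM (1617 to 1704) in the control library, Krt18 1380 and 1287 CPM, and Krt8 1038 and 1323 CPM. The Krt19 difference of 0.26 on the log2 scale turned to -0.37 when each barcode counted equally. Its median over barcodes was 1643 CPM in the mutant and 1957 CPM in the control library. Krt7 had 366 CPM in the mutant and 451 CPM in the control library, a log2 difference of -0.29 (intron-matched 0.18). Set against alveolar barcodes of the same library, Krt19 was higher in airway barcodes by 1.17 in the mutant and 1.66 in the control library on the log2 scale, Krt18 by 1.02 and 0.85, and Krt8 by 0.97 and 1.27. At least 2-fold higher in airway barcodes were 2 of the 10 genes in the mutant library, Krt18 and Krt19 (4.57% of 8910 genes tested), and 2 in the control library, Krt8 and Krt19 (7.08% of 9550).

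Among the claudins, Cldn6 was at 10 CPM or less in each alveolar gate and in the airway gate of the mutant library. Cldn6 is a claudin of embryonic epithelia. In alveolar barcodes it had 7.34 CPM (6.29 to 8.51; 175 UMIs) in the mutant and 156 CPM (151 to 160; 4367 UMIs) in the control library, 21.2-fold lower. The log2 difference was -3.26 (-3.39 to -3.12), intron-matched -2.64; 0.339% of the genes tested had a lower value. Each gate showed the gap. Cldn6 had 4.56 CPM in the mutant and 120 CPM in the control library among Ager-only barcodes, 8.72 and 151 CPM among barcodes with both genes, 10.00 and 174 CPM among Sftpc-only barcodes, and 7.76 CPM (9 UMIs) and 113 CPM (376 UMIs) among airway barcodes.

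After thinning, 0.870% of alveolar barcodes in the mutant and 23.3% in the control library carried a UMI of Cldn6, and 7.61% and 73.4% before thinning. The thinned share in endothelial barcodes was 0.0550% in the mutant and 1.07% in the control library, so the mutant alveolar share was above that of free RNA of its own library but below the endothelial share of the control library. At 2000 UMIs a level of 1 UMI is 500 CPM, so these shares count rare draws. In airway barcodes 0 of 54 in the mutant and 16.5% of 85 in the control library had a UMI after thinning, and 10.5% and 59% before. The 0 of 54 allows a share of up to 5.56% of barcodes with a UMI at that thinned depth.

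Cldn7, a broadly expressed epithelial claudin, was lower in the mutant library by less than 2-fold in pooled alveolar and in airway barcodes. It had 194 CPM (188 to 199) in the mutant and 362 CPM (355 to 369) in the control alveolar barcodes, a log2 difference of -0.87. In airway barcodes it had 303 CPM (273 to 337) in the mutant and 581 CPM (555 to 607) in the control library, a log2 difference of -0.91. The intron-matched values were smaller, at -0.25 and -0.38. Cldn3, the single gene here without an intron, had 672 CPM in the mutant and 857 CPM in the control alveolar barcodes, a log2 difference of -0.35 that turned to an intron-matched 0.18.

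Cldn18, a claudin of alveolar and gastric epithelium, marked alveolar against airway barcodes. It had 1001 CPM (989 to 1014) in the mutant and 1103 CPM (1091 to 1116) in the control alveolar barcodes, against 70.7 CPM (56.2 to 87.7) and 91.1 CPM (81.1 to 102) in airway barcodes. The log2 contrast of airway over alveolar barcodes was -3.65 (-3.95 to -3.35) in the mutant and -3.46 (-3.63 to -3.30) in the control library, and Cldn18 was the single one of the 10 genes at least 2-fold lower in airway barcodes (7.69% of genes tested in the mutant and 3.05% in the control library). Between the libraries, Cldn18 was at 1458 and 1409 CPM in Ager-only barcodes of mutant and control, and at 497 and 834 CPM in Sftpc-only barcodes. The annotation gives Cldn18 4 coding transcripts, which counts per gene do not separate.

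Counted over the 10 genes, 2 were at least 2-fold lower in the alveolar barcodes of the mutant library, Epcam and Cldn6, where 13.9% of the 9445 genes tested were that much lower. None was at least 2-fold higher, where 11.9% of all genes were. The median log2 difference of the 10 genes was -0.10, beside -0.22 over all genes. By sign, 7 of the 10 were lower in the mutant library, as were 59.7% of all genes. By intron-matched values, Krt19 was at least 2-fold higher (9.42% of genes) and Epcam and Cldn6 at least 2-fold lower (7.7%). In airway barcodes 1 gene, Cldn6, was at least 2-fold lower (13.1% of 9689 genes) and 0 higher (6.7%), with a median of -0.31 for the 10 genes and for all genes alike; 7 were lower by sign, beside 66.5% of genes. With trimmed mean scaling the split over all genes in airway barcodes was 8.84% lower and 9.95% higher. By gate, 2 genes were at least 2-fold lower and 0 higher among Ager-only barcodes (11.7% and 9.75% of genes), and likewise 2 and 0 among barcodes with both genes (13.3% and 10.4%). Among Sftpc-only barcodes 6 were at least 2-fold lower, Epcam, Krt7, Krt8, Krt18, Cldn6 and Cldn7, and 0 higher (18.8% and 12.9% of genes), while 3 were by intron-matched values (10.2%). With these backgrounds the counts among pooled alveolar and among airway barcodes were near the share over all genes.

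**Figure D4:**
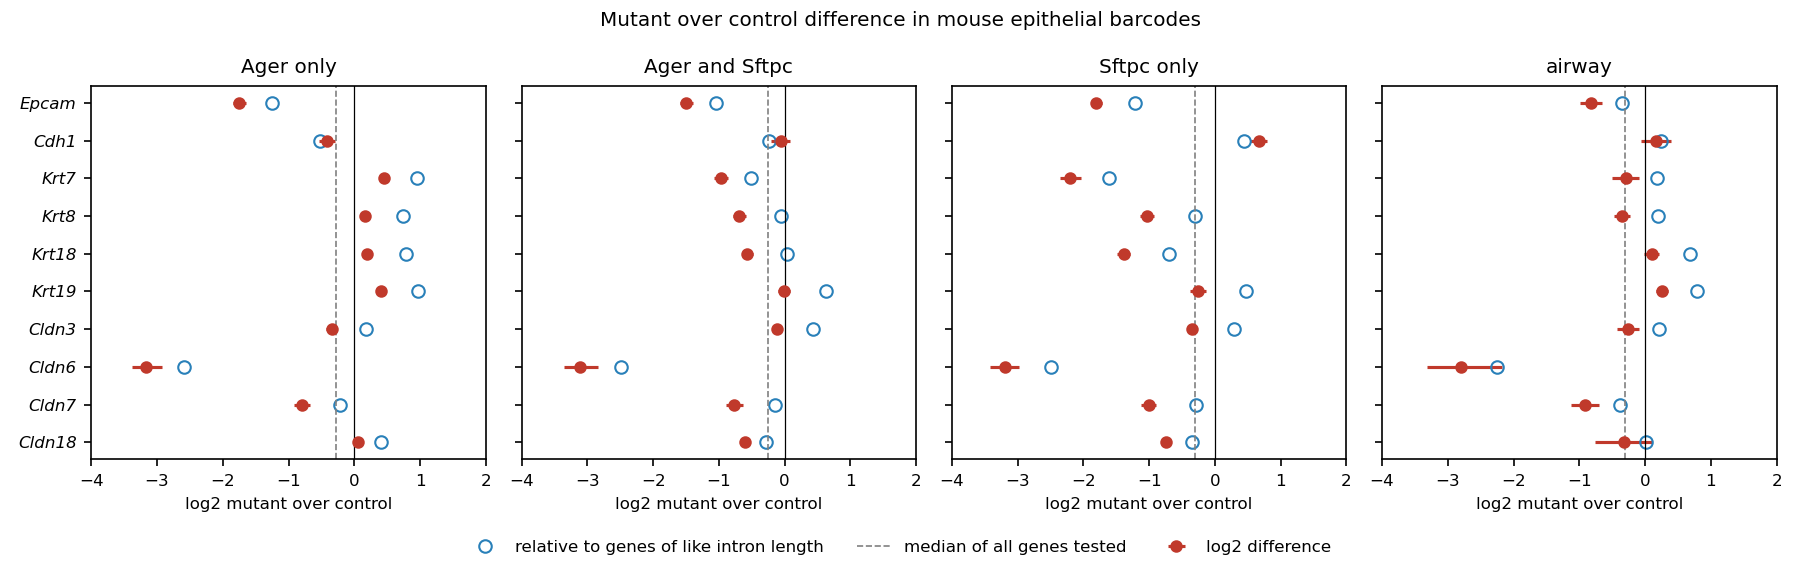
Log2 difference of mutant over control for each gene in 4 gates of mouse barcodes (red, with 95% counting intervals), the intron-matched value (open circles) and the median of all genes tested (dashed). Epcam and Cldn6 lie left of 0 by both measures in every gate, and the keratins lie right of 0 among Ager-only barcodes but Krt7 (-2.19), Krt18 (-1.39) and Krt8 (-1.03) lie left of 0 among Sftpc-only barcodes.

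The rat features followed the host. Rat Nkx2-1, the deleted gene, had 0 UMIs in the 79 rat barcodes of the mutant library and 3993 UMIs in the 725 of the control library. Of the 79, 45 were mural, 7 fibroblast and 5 immune barcodes, and 22 passed no gate. With none in the alveolar or airway gate, whether the 0 reflects the deletion was not tested. Whether the counted end of the transcript lies in the deleted part is not stated in the sources used here. Mouse Nkx2-1 was present in both libraries, at 336 CPM in alveolar barcodes of the mutant and 532 CPM in those of the control library. Rat transcripts of the 10 genes were rare in the mutant library. Over all its barcodes 8 UMIs of the rat features were counted among 1856112 rat UMIs: 5 of Cdh1, 2 of Krt7, 1 of Epcam and 0 of the other 7 genes. The control library held 36435 among 18910529 rat UMIs, from 175 UMIs of Krt19 to 12737 UMIs of Epcam. None of the 79 rat barcodes of the mutant library passed the alveolar or airway gate, which allows a share of up to 3.797%, while 51 rat alveolar and 4 rat airway barcodes were found in the control library. Of the 51, 49 passed by Sftpc only, with 3854 CPM of the 7 AT2 markers other than Sftpc, 1279 CPM of Scgb1a1 and 34.0 CPM of the AT1 markers other than Ager. The mouse Sftpc-only barcodes of the control library had 0.958 CPM of Scgb1a1.

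The species could be compared within the control library, among Sftpc-only barcodes. Each species has its own gene models and no rat annotation was used here, so species and annotation cannot be told apart. The gated barcodes of the species also differed in Scgb1a1, as given above, and a difference in their cell make-up or free RNA was not tested. Epcam had 1048 CPM (1030 to 1065) in mouse and 1523 CPM (1465 to 1583) in rat barcodes, and Cdh1 132 and 98.4 CPM. Krt7 had 278 CPM in mouse and 241 CPM in rat barcodes, Krt8 409 and 436 CPM, Krt18 546 and 588 CPM, Cldn6 174 and 147 CPM, and Cldn7 372 and 360 CPM. These 5 genes differed by at most 0.22 on the log2 scale. Cldn18 stood at 834 CPM in mouse and 541 CPM in rat barcodes, a log2 difference of 0.62.

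Krt19 and Cldn3 stood apart between the species. Krt19 had 205 CPM (197 to 213) in mouse and 10.5 CPM (6.25 to 16.7; 18 UMIs) in rat Sftpc-only barcodes, a log2 difference of 3.39 (2.96 to 3.78). It was also low in other rat epithelium, at 116 CPM (52.9 to 220; 9 UMIs) in the 4 rat airway barcodes, against 1660 CPM in mouse airway barcodes of the control library. Cldn3 had 879 CPM (863 to 895) in mouse and 292 CPM (267 to 319) in rat barcodes, a log2 difference of 1.56. These were the 2 genes at least 2-fold higher in mouse, where 15.7% of the 8331 symbols tested were, and 0 were at least 2-fold lower, where 8.15% were. Rat Sftpc was lower, with 14077 CPM in the gated barcodes, so a gate at 1000 CPM of Sftpc, chosen after this was seen, was tried; it took 137 rat barcodes and gave log2 differences of 3.15 for Krt19 and 1.62 for Cldn3, again the 2 genes at least 2-fold higher in mouse (14.5% of symbols) with 0 lower (8.1%).

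The rat levels were also set beside the mouse levels of both libraries among Sftpc-only barcodes. On the log2 scale 7 of the 10 genes were nearer in rat to mouse barcodes of the control library. The other 3, Krt19, Cldn3 and Cldn18, were nearer to mouse barcodes of the mutant library. Krt19 was far from both, at 3.13 from the mutant and 3.39 from the control level. Rat and control mouse barcodes share a library and a software version, and the mutant mouse barcodes do not. The same count over all genes was not made, so the split is not read as a result. Cldn6 had 10.00 CPM in mouse barcodes of the mutant library, 174 CPM in mouse barcodes of the control library and 147 CPM in rat barcodes of the control library. In the same order Epcam had 294, 1048 and 1523 CPM, and Cldn18 497, 834 and 541 CPM.

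**Figure D5:**
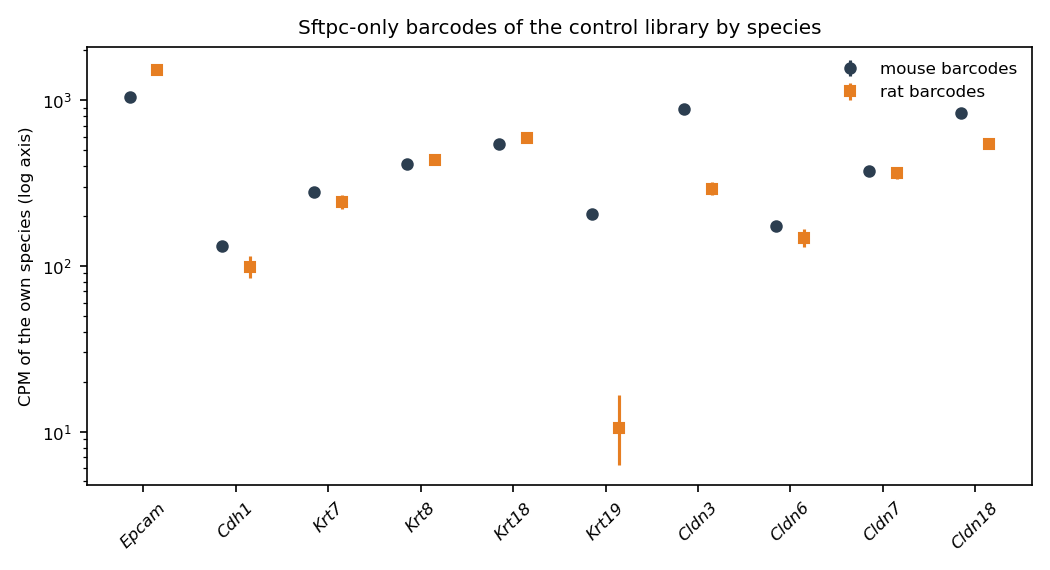
Level of each gene (CPM of the own species, log axis) in Sftpc-only barcodes of the control library, with mouse (dark) left of rat (orange) and 95% Poisson bars. Krt19 (205 and 10.5 CPM) and Cldn3 (879 and 292 CPM) lie apart, and Cldn6 and Cldn7 lie close together.

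Other genes of the same structures were followed in lists, with genes of at least 10 CPM in the mutant or the control library counted as measured. Of 14 other tight junction genes, all were measured in alveolar barcodes, and 8 were at least 2-fold higher in the mutant library and 0 lower, beside 11.9% and 13.9% of all genes tested. Their median log2 difference was 1.14. The intron-matched median was 0.69, with 5 at least 2-fold higher, beside 9.42% of all genes. Magi1 and Patj among these lay in the last bin of intron length, where the match is coarse. The scaffold gene Magi1, with 598 kb of intron, had 618 CPM in the mutant and 42.6 CPM in the control library, a log2 difference of 3.58 (intron-matched 2.28). Magi3, a scaffold gene of the same family, had 536 and 87.2 CPM, at 2.49 (intron-matched 1.68). The lowest were Tjp3, a zonula occludens scaffold, at a log2 difference of -0.45 (intron-matched -0.01), and Cgn (cingulin), with 48.8 and 59.6 CPM. In airway barcodes 4 of the 14 were at least 2-fold higher (6.7% of all genes), and 2 by intron-matched values (7.63%).

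Of 11 adherens junction genes, 1 was at least 2-fold higher in the alveolar barcodes of the mutant library and 2 were lower, beside 11.9% and 13.9% of all genes, with a median of 0.08 (intron-matched -0.01). By intron-matched values 0 were at least 2-fold higher and 1, Cdh3, was lower, beside 9.42% and 7.7% of all genes. Nectin3, a nectin cell adhesion gene, had 111 CPM in the mutant and 47.1 CPM in the control library, and Ctnna1 (alpha-catenin) 487 and 250 CPM. Cdh3 (P-cadherin) had 9.18 and 31.6 CPM and Cdh16 27.3 and 69.4 CPM. The intron-matched values of these 4 genes were 0.49, 0.12, -1.12 and -0.70. Of 9 desmosome genes 8 were measured, 2 at least 2-fold higher and 0 lower, beside 11.9% and 13.9% of all genes, and the same counts held by intron-matched values. The 2 were the plaque genes Ppl, with 76.4 and 25.4 CPM, and Pkp2, with 72.7 and 25.1 CPM. Dsg2, a desmosomal cadherin, at 15.7 and 24.4 CPM and Pkp3 at 14.6 and 20.8 CPM were the lowest of that list.

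Other claudins and keratins were few. Of 13 other claudins 4 were measured and none differed 2-fold, beside 11.9% of all genes higher and 13.9% lower. Cldn10 had 198 CPM in the mutant and 176 CPM in the control library, Cldn5 7.34 and 13.2 CPM, Cldn4 38.7 and 57.7 CPM and Cldnd1 44.4 and 71.7 CPM. Of 10 other keratins only Krt15 was measured, at 4.78 and 18.9 CPM. In airway barcodes Krt15, a keratin of basal and other progenitor cells, had 1372 CPM in the mutant and 357 CPM in the control library, a log2 difference of 1.91 (intron-matched 2.50). Among 16 epithelial regulators 12 were measured and none differed 2-fold, though Rab25 did by its intron-matched value of 1.05 (9.42% of all genes were that much higher). The ends of the list were Grhl2 (63.6 and 37.4 CPM) and Rab25 (271 and 195 CPM) as the highest, and Ap1m2 (25.8 and 48.5 CPM) and Spint2 (283 and 455 CPM) as the lowest. Of 9 mesenchymal counterparts 3 were measured: Vim, the mesenchymal intermediate filament gene, had 48.1 CPM in the mutant and 305 CPM in the control library, Fn1 33.0 and 48.0 CPM and Zeb2 19.3 and 14.0 CPM. The log2 difference of Vim was -2.44 (intron-matched -1.85).

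Across 18 points, the mouse gates of both libraries with at least 20 barcodes, the genes whose level was most like the mean of the 10 genes were Krtcap3, Esrp2, Klf5, Dsp and Cystm1, with Pearson correlations of 0.99, 0.99, 0.98, 0.98 and 0.97 on the log2 scale. The points share libraries and differ mostly between epithelial and other gates, so this is a description over 7668 genes. Among the 10 genes the correlation with their own mean was highest for Krt8, at 0.98, and lowest for Cldn6, at 0.77.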

How the data were processed

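The deposited matrices hold the authors' UMI counts per gene and barcode, whole numbers with no scaling, for a joint mm10 and rn6 gene set. Per the file headers, Cell Ranger 7.0.1 made the mutant and 6.0.1 the control matrix, and Seurat 4.3 is named per the submitters' processing notes. The feature and barcode tables are names and carry no measurement. The mutant library held 10918 barcodes and 103627303 UMIs, the control library 11129 barcodes and 123047433 UMIs.

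Barcodes were kept with at least 500 genes and at most 20% mitochondrial UMIs (8990 mutant, 9021 control). They were called mouse at 90% mouse UMIs or more and rat at 10% or less. The automatic Scrublet threshold marked 373 mouse barcodes in the mutant and 2 (0.0270%) in the control library, so a score of 0.2 or more was removed in both: 356 and 154 mouse barcodes. Fewer than 200 rat barcodes of the mutant library were not scored. Used were 8498 and 7260 mouse and 79 and 725 rat barcodes. Gates also needed 3 UMIs of Ager or Scgb3a2 or 10 UMIs of Sftpc, and at most 500 CPM of Pecam1, Cdh5, Ptprc, Pdgfra, Pdgfrb and Tcf21 together. Endothelial, mesothelial, fibroblast, mural and immune gates took 500 CPM of their markers outside the epithelial gates.

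Levels are CPM of summed UMIs. Log2 differences add 10 CPM, genes with 10 CPM in either group were tested, and 2-fold or more counted as different. Like intron length means 1 of 20 bins of GENCODE vM21 intron length, which 99.5% of 55293 mouse symbols had. A count of 0 is given a limit of 3 counts. All 10 genes are named in every gate; of other lists the 2 highest and 2 lowest are named. The genes, lists and gates were chosen with earlier results of these data known. The steps were checked on simulated counts. Alternatives changed gates, filters, scaling, pseudocount and thinning depth. Python 3.11.15, NumPy 2.4.6, SciPy 1.17.1, pandas 2.3.3, Scanpy 1.11.5 and Biopython 1.88 were used.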

Additional observations from a re-analysis of the deposited data

Results flagged for a closer look

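Listed here are genes whose counting intervals lay clear of 0, with opposite signs, in both of the gates compared. For 5 genes the difference between the libraries had opposite signs in the Ager-only and the Sftpc-only barcodes, and for Krt7 also in alveolar and airway barcodes. With 1 library per group these contrasts between gates were not tested. The share of all genes that meet this rule was not counted, so the number of genes listed has no background. On the log2 scale, mutant over control, Krt7 was at 0.45 among Ager-only and -2.19 among Sftpc-only barcodes, Krt8 at 0.17 and -1.03, and Krt18 at 0.20 and -1.39. Krt19 was at 0.40 and -0.25, and the second value turned to an intron-matched 0.47. Cdh1 ran the other way, at -0.41 among Ager-only and 0.67 among Sftpc-only barcodes. Krt7 was at 0.11 in pooled alveolar and -0.29 in airway barcodes, both of which change sign under other scalings or gate weights. By sign alone, with an interval that included 0, Cldn18 also differed, at 0.05 among Ager-only and -0.74 among Sftpc-only barcodes, and Krt18, at -0.07 in pooled alveolar and 0.10 in airway barcodes.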

How the results depend on the processing

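No paired analysis was possible because there was 1 library per group, and no library could be left out. Of 480 values of single genes under alternative settings, 387 stayed within their counting interval and 93 moved beyond it. None at 2-fold or more changed sign. The 480 cover pooled alveolar, airway and mouse over rat values. Mutant over control differences within single alveolar gates were run only under other scalings and as intron-matched values. The alveolar log2 difference of Epcam ranged from -1.79 to -1.27 and that of Cldn6 from -4.23 to -1.84 over 18 alternatives. In airway barcodes Epcam ranged from -0.87 to -0.35 and Cldn6 from -3.70 to -1.50. The signs of Krt8 and Krt18 in pooled alveolar barcodes each changed in 5 of 18 alternatives. By intron-matched values, 4 of the 10 genes were lower in alveolar and 3 in airway barcodes of the mutant library, beside 7 in each otherwise, and 1 was at least 2-fold higher in alveolar barcodes, beside 0. With the gate levels doubled, 4 genes were at least 2-fold higher in mouse than in rat, beside 2 with the main gates. Thinned to 1000 UMIs, 1 gene had a share at least 10 points higher in the mutant library, beside 0. For the mouse over rat count the share over all genes was not computed with the gate levels doubled. For the count of barcode shares it was not computed under any setting. The airway control barcodes held 7 of 100 with ciliated markers, which carried 18.8% of their UMIs, and 1 of 57 in the mutant library; without them the log2 differences were -2.80 for Cldn6, -0.85 for Epcam and -0.26 for Krt8, an alternative chosen after the data were seen. The rat airway values rest on 4 barcodes.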

Other observations

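Mesothelial barcodes, which line the lung surface and were gated by Upk3b and Lrrn4, carried keratins without the other epithelial genes in both libraries. Among 25 barcodes in the mutant and 31 in the control library, Krt19 had 868 CPM (793 to 949) and 1250 CPM (1158 to 1348), and Krt7 614 CPM (551 to 683) and 758 CPM (686 to 835). Krt18 was lower in the mutant library, with 175 CPM (142 to 214; 98 UMIs) against 589 CPM (526 to 658; 318 UMIs) in the control library. No single barcode held more than 14.3% of its UMIs in the mutant or 16.04% in the control library. Its partner Krt8 had 115 CPM (88.2 to 146) and 170 CPM (137 to 209). Epcam, Cdh1 and the 4 claudins were each at 12.5 CPM or less in the mutant and 18.5 CPM or less in the control mesothelial barcodes.

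Cdh1 was also counted in immune barcodes, at 32.2 CPM (20.8 to 47.5; 25 UMIs in 10 of 61 barcodes) in the mutant and 34.1 CPM (26.5 to 43.3; 68 UMIs in 34 of 143 barcodes) in the control library. Endothelial barcodes had 3.39 and 2.57 CPM of Cdh1. In the mutant immune barcodes other epithelial genes were as high, with Cldn18 at 38.6 CPM, Cldn3 at 29.6 CPM and Sftpc at 3315 CPM, while the control immune barcodes had 13.0 CPM of Cldn18, 4.01 CPM of Cldn3 and 190 CPM of Sftpc. The same Cdh1-bearing immune barcodes held 10 UMIs of Epcam in the mutant and 7 in the control library, and the part of epithelial RNA in these values was not tested.

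Ciliated barcodes, gated by Foxj1 and Ccdc153 after the data were seen, numbered 68 in the mutant and 18 in the control library. Krt8 and Krt18 stood at 1735 and 1375 CPM in the mutant and 1973 and 1529 CPM in the control library. Krt7 had 61.1 and 62.4 CPM and Cldn18 28.2 and 17.3 CPM. Cldn6 had 6.59 CPM (11 UMIs) in the mutant and 48.5 CPM (14 UMIs) in the control library, and Krt19 had 338 and 170 CPM. Outside the alveolar and airway gates, ciliated barcodes held 16.4% of Krt8 UMIs in the mutant and 2.54% in the control library.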
